A study of Mus musculus with 6 samples.

Results

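The phase II conjugating enzymes described here are the 44 of 18820 measured genes whose array feature carried a single symbol of the glutathione transferase (Gst, and the membrane-bound Mgst), UDP-glucuronosyltransferase (Ugt) or sulfotransferase (Sult) families. They comprise 17 Gst genes, 3 Mgst genes, 9 Ugt genes and 15 Sult genes, and each gene is given by its feature with the highest mean. Conjugating enzymes attach a small polar group to drugs, hormones, bile pigments and reactive metabolites so that they leave the cell. Glutathione transferases add glutathione, UDP-glucuronosyltransferases add glucuronic acid from UDP-glucuronate, and sulfotransferases add sulfate from the donor PAPS. Their conjugates are carried out of the hepatocyte by ABC transporters, and many of their genes answer to the transcription factors Nrf2, the aryl hydrocarbon receptor and the nuclear receptors for xenobiotics.

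The cells were primary hepatocytes from male wildtype C57BL/6J mice aged 8 to 10 weeks. They were cultured in 60 mm dishes and transduced for 24 h with a virus carrying green fluorescent protein (Ad-GFP, the control) or with one encoding nuclear CREBH (Ad-nuclear CREBH, titled Ad-CREBH3 in the labels), each at 100 viral particles per cell. CREBH is a liver transcription factor that sits in the endoplasmic reticulum membrane until its N-terminal part is cut free, and the nuclear form is that part, here made from a CMV shuttle vector. Each group had 3 arrays, 1 per dish, and the sources do not say whether the dishes came from separate mice, so p-values measure the spread between these dishes.

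Values are log2 expression, and a gene is said to have risen or fallen where the Benjamini-Hochberg adjusted p of the limma fit over all genes was under 0.05. Creb3l3, which encodes CREBH, had values of 8.49, 8.02 and 8.21 under Ad-GFP and of 9.97, 10.46 and 10.59 under Ad-nuclear CREBH, and the array cannot separate viral from mouse transcript. The median log2 value of the arrays was 5.119, 5.268 and 5.302 under Ad-GFP and 5.050, 5.116 and 5.097 under Ad-nuclear CREBH. Each Ad-nuclear CREBH array thus had a lower median than any Ad-GFP array. Replicate 1 of each group stood somewhat apart, with a mean correlation to its group of 0.986 for Ad-GFP and 0.991 for Ad-nuclear CREBH. Of 10 hepatocyte markers 5 fell, Gsta3 among them, and 1 rose. All 10 lay above the median level of all genes. Of all genes above that level 29.2% fell and 29.3% rose, 58.5% in either direction. Alb, which encodes albumin, was at 13.28 ± 0.039 (SD, n = 3) in the Ad-GFP dishes and 13.27 ± 0.045 (SD, n = 3) in the Ad-nuclear CREBH dishes, and its adjusted p was 0.87. After cyclic loess its log2 fold change was -0.31, with an adjusted p of 0.0064.

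Between the groups 23 of the 44 conjugating genes fell and 4 rose, while 17 did not pass the test. Of all genes measured 18.2% fell and 19.2% rose, 37.4% in either direction. After centring each array on its median 4814 of all genes rose and 2852 fell, and 5 and 22 of the conjugating genes. The median log2 fold change, Ad-nuclear CREBH minus Ad-GFP, was -0.92 over the conjugating genes and 0.04 over all genes. The groups did not overlap for the same 23 falling genes, with every Ad-nuclear CREBH dish lower, against 23.1% of all genes, and for the same 4 rising genes, against 26.2% (49.4% in either direction). The study's criteria were an unadjusted p under 0.001, a fold over 2 or under 0.5, and an expression value over 300. The study does not say in which samples, and a linear mean over 300 in at least 1 group was required here. Read this way, 15 passed, against 8.01% of all genes. All 15 had fallen, against 3.1% of all genes, and 0 had risen, against 4.91%, although 4 had risen with an unadjusted limma p under 0.05. A fall of more than 4-fold was measured for 16 genes, against 2.44% of all genes, and a rise of more than 4-fold for 1 gene, Sult2b1, against 2.93%.

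By family, the counts were uneven. Of the Gst genes 12 of 17 fell and 1 rose, with a median log2 fold change of -1.84. Of the Ugt genes 7 of 9 fell and the remaining 2 did not pass, with a median of -2.31. Of the Sult genes 3 of 15 fell and 3 rose, with a median of 0.03, and 1 of 3 Mgst genes fell. The Sult shares of 20% lower and 20% higher were near the 18.2% and 19.2% of all genes. For the Mgst genes 33.3% passed, against 37.4% of all genes. The families also differed in level, which is the mean over the arrays of both groups, so that a deep fall lowers it. Of the 27 conjugating genes above the median level of all genes 20 fell (74.1%), against 29.2% of all genes above that level, and of the 17 at or under it 3 fell (17.6%), against 7.23%. Those 3, Sult1e1, Ugt2b37 and Sult1c2, had Ad-GFP means of 6.93, 5.62 and 5.26, above the median level of 5.24. The Sult genes made up 12 of those 17.

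The alpha class held both of the deepest falls among the glutathione transferases. Gsta4, which clears the lipid peroxidation product hydroxynonenal, had values of 10.35, 10.77 and 10.53 under Ad-GFP and of 5.97, 5.25 and 5.34 under Ad-nuclear CREBH. Gsta3, an abundant hepatocyte transferase that acts on aflatoxin epoxide in mice, had values of 10.95, 11.42 and 11.37 against 6.63, 7.02 and 6.75. Both genes were thus far lower in every Ad-nuclear CREBH dish, with no overlap. Gsta4 fell 32.7-fold (log2 fold change -5.03, SE 0.21, adjusted p = 1.3e-05) and Gsta3 fell 21.9-fold (-4.45, SE 0.17, adjusted p = 9.4e-06). The difference between the falls of Gsta3 and Gsta4 was 0.58 on the log2 scale with a 95% interval from -0.35 to 1.51. Its two-sided exact permutation p was 0.2, in a design of 3 against 3 that cannot go below 0.1.

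All 6 mu class genes passed the test, but not in the same direction. The sources do not say whether the array probes tell relatives within this or any other class apart. Their values may thus not be independent. Gstm3 had values of 10.98, 11.82 and 11.79 under Ad-GFP and of 7.73, 8.29 and 8.28 under Ad-nuclear CREBH, a 10.8-fold fall (log2 fold change -3.43, SE 0.25, adjusted p = 3.7e-05). It is the only one of these genes with a second feature of its own, which fell by 4.79 on the log2 scale. Gstm1, the major mu class enzyme of mouse liver, had values of 11.98, 12.14 and 12.35 against 10.67, 10.20 and 10.07, a 3.59-fold fall (log2 fold change -1.84, SE 0.17, adjusted p = 8.5e-05). Gstm6, Gstm4 and Gstm7 fell with log2 fold changes of -2.09, -2.06 and -1.73 and with adjusted p values up to 0.0088.

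Gstm2 went the other way. Its values were 10.13, 10.47 and 10.55 under Ad-GFP and 10.71, 11.17 and 11.08 under Ad-nuclear CREBH. The lowest Ad-nuclear CREBH dish lay just above the highest Ad-GFP dish, and the rise was 1.52-fold (log2 fold change 0.60, SE 0.15, adjusted p = 0.016). The rise kept its direction under every alternative tried, but its adjusted p was 0.069 without Ad-nuclear CREBH replicate 2, 0.064 without Ad-nuclear CREBH replicate 3 and 0.052 after cyclic loess. The change of Gstm1 was lower than that of Gstm2 by 2.45 (95% interval of the difference -3.33 to -1.56), with an exact permutation p of 0.1, the smallest this design allows, and 0.14 after adjustment over the 10 pairs compared.

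The stretches of 250 bases before a transcription start of Gstm1 and that of Gstm2 are shown because the genes lie near each other and changed in opposite directions. The sequences are RefSeq's, on GRCm38.p6, written 5′ to 3′ along the gene, and capitals mark the letters GCGTG, the core of the element bound by the aryl hydrocarbon receptor.
Gstm1, chr3:108017819-108018068, minus strand: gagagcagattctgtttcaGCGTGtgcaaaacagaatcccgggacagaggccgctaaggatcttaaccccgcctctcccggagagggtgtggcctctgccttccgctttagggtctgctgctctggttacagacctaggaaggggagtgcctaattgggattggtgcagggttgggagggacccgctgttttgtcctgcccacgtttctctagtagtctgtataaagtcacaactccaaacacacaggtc
Gstm2, chr3:107986421-107986670, minus strand: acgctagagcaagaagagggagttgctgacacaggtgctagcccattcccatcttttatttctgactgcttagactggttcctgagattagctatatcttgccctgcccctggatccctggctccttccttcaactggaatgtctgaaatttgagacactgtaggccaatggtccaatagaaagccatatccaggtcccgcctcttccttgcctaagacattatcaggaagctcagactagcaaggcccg
Aligned end to end the pair shared 148 of 250 bases, 59.2%, which lies within the range of 54.8% to 64.8% over all mu class pairs. The alignment allowed gaps, and unrelated stretches were not aligned for comparison, so such a share is by itself no measure of likeness. The core stands once in the Gstm1 stretch, starting 231 bases before the start, and was not found in that of Gstm2. Nor was it found in any window of Gstm3, Gstm4, Gstm6 or Gstm7, which all fell. The stretch shown precedes the inner of 2 listed starts of Gstm1, and in that of the outer start, chr3:108017974-108018223, the same core begins 76 bases before the start.

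Both pi class genes fell. Gstp1, which conjugates a wide range of electrophiles, had values of 12.43, 12.63 and 12.65 under Ad-GFP and of 10.56, 10.02 and 9.72 under Ad-nuclear CREBH. That was a 5.54-fold fall (log2 fold change -2.47, SE 0.19, adjusted p = 4.6e-05). Gstp3 fell 4.59-fold (-2.20, SE 0.15). The difference between their falls was -0.27, with a 95% interval from -1.20 to 0.66 and an exact permutation p of 0.4.

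In the other classes 1 gene fell in each and its measured relatives did not pass. Gstt1, which acts on small halogenated compounds, had values of 8.02, 9.04 and 9.05 under Ad-GFP and of 6.38, 6.07 and 6.15 under Ad-nuclear CREBH, a 5.66-fold fall (log2 fold change -2.50, SE 0.28, adjusted p = 0.00024). Gstt2, Gstt3 and Gstt4 had log2 fold changes of -0.40, 0.18 and -0.01 with adjusted p values of 0.23 to 0.95. Without Ad-GFP replicate 1 the log2 fold change of Gstt2 was -0.68, with an adjusted p of 0.0047. The change of Gstt1 differed from that of Gstt2 by -2.10 (95% interval -2.37 to -1.82), with an exact permutation p of 0.1. Gsto1, which reduces dehydroascorbate and methylated arsenic, fell 3.12-fold, whereas Gsto2 was at 3.35 ± 0.47 against 3.24 ± 0.20 (SD, n = 3 each). Gstk1, the transferase of mitochondria and peroxisomes, fell 2.25-fold (log2 fold change -1.17, SE 0.22, adjusted p = 0.0035). It was the only measured gene of its class.

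Among the microsomal enzymes Mgst1, which protects the membranes of the endoplasmic reticulum and the outer mitochondrial membrane, had values of 11.66, 12.04 and 11.97 in the Ad-GFP dishes. In the Ad-nuclear CREBH dishes it had values of 8.70, 8.11 and 7.83. The groups were far apart, and the fall was 12.8-fold (log2 fold change -3.68, SE 0.22, adjusted p = 2.2e-05). Mgst2 and Mgst3, relatives with a part in leukotriene synthesis, had log2 fold changes of -0.15 and 0.13 with adjusted p values of 0.51 and 0.59. The change of Mgst1 differed from that of Mgst3 by -3.81 (95% interval -4.72 to -2.90), with an exact permutation p of 0.1.

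**Figure D1:**
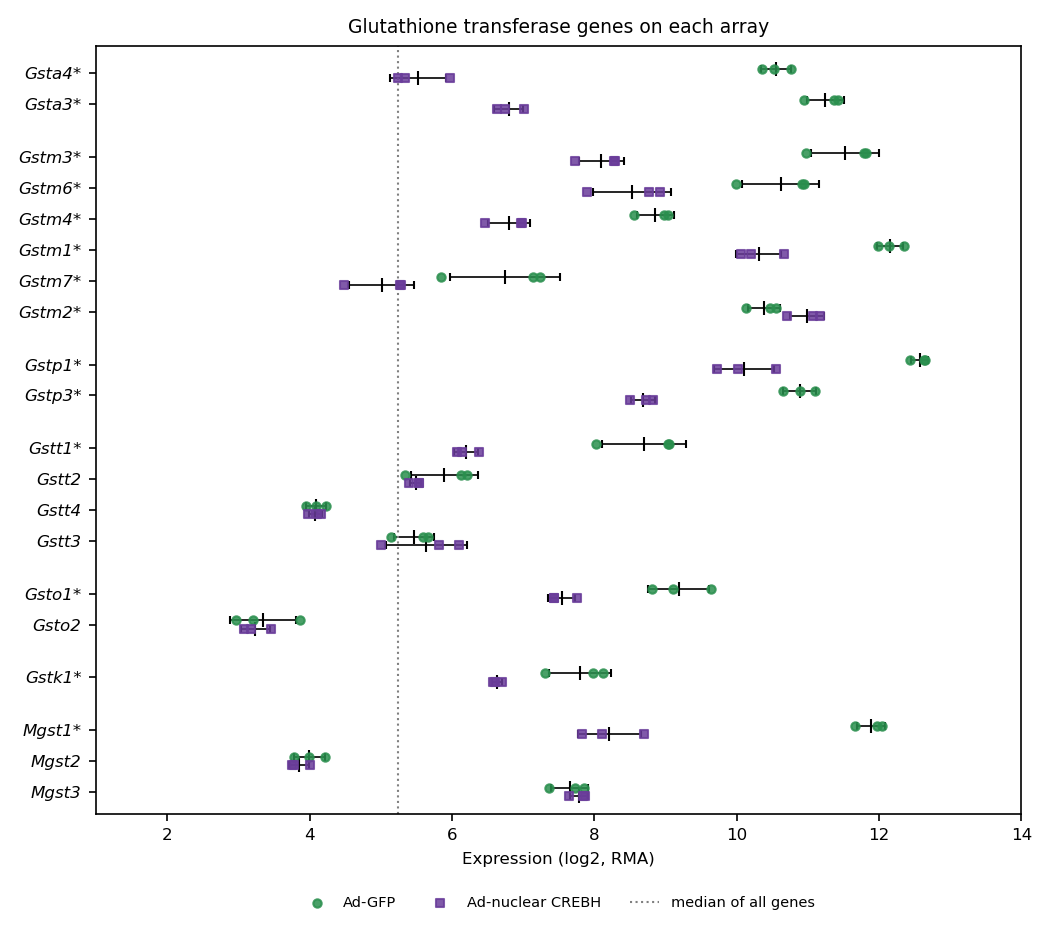
Log2 expression of the 17 Gst and 3 Mgst genes on each of the 3 Ad-GFP arrays (circles) and 3 Ad-nuclear CREBH arrays (squares), with the group mean (tick) and SD (bar); an asterisk marks an adjusted p under 0.05 and the dotted line the median of all genes. Both alpha genes and Mgst1 show wide gaps between the groups, and Gstm2 is the only gene whose Ad-nuclear CREBH arrays all lie to the right.

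The stretches before the starts of Gsta3 and Mgst1 are shown because they hold the letters TGACNNNGC, the core of the antioxidant response element that Nrf2 binds with its small Maf partners. Capitals mark that core, which reads on the opposite strand in Mgst1.
Gsta3, chr1:21240335-21240584, plus strand: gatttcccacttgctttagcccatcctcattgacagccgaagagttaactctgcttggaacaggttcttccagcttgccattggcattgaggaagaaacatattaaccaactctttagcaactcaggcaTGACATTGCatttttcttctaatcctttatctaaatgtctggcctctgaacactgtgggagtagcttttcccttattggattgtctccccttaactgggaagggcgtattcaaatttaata
Mgst1, chr6:138140277-138140526, plus strand: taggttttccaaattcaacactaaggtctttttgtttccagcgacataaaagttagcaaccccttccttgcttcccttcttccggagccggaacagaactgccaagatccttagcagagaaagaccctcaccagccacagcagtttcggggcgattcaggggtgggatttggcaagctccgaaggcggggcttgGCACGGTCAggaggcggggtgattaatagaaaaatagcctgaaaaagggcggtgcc
Windows of 300 bases (250 before and 50 after the start) were listed for 41 of the 44 genes, 52 windows in all, and were searched on both strands. The core was present in 3 of these 52 windows, that of Gsta3 and a single window each of Gstm7 and Mgst1, against 12.4% of 32851 windows of all genes. The core GCGTG was present in 9 windows, against 32.4%. Such matches describe letters, not bound sites.

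The glucuronosyltransferases measured here were 8 Ugt2 genes and Ugt3a1. Ugt2b enzymes conjugate steroids, bile acids and drugs. Ugt2b35 changed more than any other conjugating gene: its values were 8.65, 9.76 and 9.73 under Ad-GFP and 2.83, 3.46 and 3.71 under Ad-nuclear CREBH. That was a 66.1-fold fall (log2 fold change -6.05, SE 0.34, adjusted p = 2.0e-05). Ugt2b34 had values of 11.27, 12.02 and 11.89 against 7.46, 7.41 and 7.63, an 18.7-fold fall (log2 fold change -4.23, SE 0.19, adjusted p = 1.4e-05). Ugt2b5 and Ugt2b36 fell with log2 fold changes of -4.46 and -4.41 and no overlap between groups. Ugt2b37 and Ugt2b38 fell with log2 fold changes of -2.31 and -1.95 from Ad-GFP means of 5.62 and 6.41.

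The rest of the family changed less or did not pass. Ugt2a3 had values of 7.65, 7.50 and 7.28 under Ad-GFP and of 7.23, 6.79 and 6.68 under Ad-nuclear CREBH. It fell 1.49-fold (log2 fold change -0.58, SE 0.19) with an adjusted p of 0.042, which lay between 0.052 and 0.16 when any array but Ad-nuclear CREBH replicate 1 was left out and between 0.083 and 0.13 after median centring, quantile normalization or cyclic loess. Ugt2b1 had values of 7.15, 8.04 and 7.86 against 8.02, 7.76 and 7.88, so that its groups overlapped (log2 fold change 0.21, SE 0.23, adjusted p = 0.54). Between Ugt2b34 and Ugt2b1 the difference in change was -4.44 (95% interval -4.71 to -4.16), with an exact permutation p of 0.1 and 0.14 over the 10 pairs. Ugt3a1, which transfers N-acetylglucosamine, had a log2 fold change of -0.17 (adjusted p = 0.67).

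The stretches before 3 Ugt2b genes are shown because they are close copies, beside that of Ugt2b1, whose change did not pass. Capitals mark the 62 bases that Ugt2b5, Ugt2b37 and Ugt2b38 have in common, the longest such run.
Ugt2b5, chr5:87140341-87140590, minus strand: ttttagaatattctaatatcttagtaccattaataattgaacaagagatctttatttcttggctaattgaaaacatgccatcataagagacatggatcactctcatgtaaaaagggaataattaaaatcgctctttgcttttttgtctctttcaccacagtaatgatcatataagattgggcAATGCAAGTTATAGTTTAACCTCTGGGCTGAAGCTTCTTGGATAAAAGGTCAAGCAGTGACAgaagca
Ugt2b37, chr5:87254789-87255038, minus strand: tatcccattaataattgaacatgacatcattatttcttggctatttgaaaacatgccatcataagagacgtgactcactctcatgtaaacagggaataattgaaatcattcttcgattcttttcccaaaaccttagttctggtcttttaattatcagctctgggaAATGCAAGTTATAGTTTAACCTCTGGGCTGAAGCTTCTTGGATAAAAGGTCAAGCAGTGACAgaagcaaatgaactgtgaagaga
Ugt2b38, chr5:87424204-87424453, minus strand: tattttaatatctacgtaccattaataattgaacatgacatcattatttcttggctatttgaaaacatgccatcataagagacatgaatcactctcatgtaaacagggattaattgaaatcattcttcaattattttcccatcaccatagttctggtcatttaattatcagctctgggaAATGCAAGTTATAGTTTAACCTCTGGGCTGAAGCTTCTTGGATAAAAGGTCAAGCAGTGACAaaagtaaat
Ugt2b1, chr5:86926504-86926753, minus strand: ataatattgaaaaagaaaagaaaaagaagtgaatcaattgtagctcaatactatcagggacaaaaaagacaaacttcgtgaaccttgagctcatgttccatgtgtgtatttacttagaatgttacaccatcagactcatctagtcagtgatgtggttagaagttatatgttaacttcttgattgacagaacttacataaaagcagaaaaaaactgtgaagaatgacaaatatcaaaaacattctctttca
Ugt2b37 and Ugt2b38 shared 225 of 250 bases over these stretches, Ugt2b5 and Ugt2b38 84.8%, and Ugt2b5 and Ugt2b37 80.0%. Ugt2b1 shared 60.8% with Ugt2b5 and 62.0% with Ugt2b38. Ugt2b34, which fell, shared 61.2% and 59.6% with the same genes. Here too the alignment allowed gaps, and the share between unrelated stretches was not measured. The 62 bases were found in no other window of a conjugating gene, and so not in those of Ugt2b34, Ugt2b35 and Ugt2b36, which fell. Whether the array probes tell such close relatives apart is not given in the sources, so their values may not be independent.

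The sulfotransferases held 3 falls in the Sult1 class and 1 large rise in the Sult2 class. Their shares of falls and rises were near those of all genes. Sult1e1, the estrogen sulfotransferase, had values of 8.38, 6.32 and 6.10 under Ad-GFP and of 2.57, 2.66 and 2.77 under Ad-nuclear CREBH. Ad-GFP replicate 1 was well above the other two, yet no dish overlapped, and the fall was 19.2-fold (log2 fold change -4.27, SE 0.53, adjusted p = 0.00043). Without that array the log2 fold change was -3.54. Sult1d1, which sulfates dopamine and other catecholamines, had values of 8.10, 8.06 and 7.71 against 5.03, 4.09 and 4.44, a 10.8-fold fall (log2 fold change -3.44, SE 0.25, adjusted p = 3.7e-05). Sult1c2 fell by 1.92 on the log2 scale (SE 0.45, adjusted p = 0.010), from Ad-GFP values of 4.05, 5.71 and 6.01. Without the lowest of these, Ad-GFP replicate 1, the log2 fold change was -2.53.

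Sult1a1, the phenol sulfotransferase, did not pass (log2 fold change -0.66, SE 0.32, adjusted p = 0.15). Its Ad-nuclear CREBH values were spread over 5.47, 4.55 and 4.05, and without Ad-nuclear CREBH replicate 1 the log2 fold change was -1.05 (adjusted p = 0.0051). Sult1b1, which sulfates thyroid hormones, and Sult1c1 had log2 fold changes of -0.19 and 0.16.

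Sult2b1, which sulfates cholesterol and oxysterols, had values of 3.81, 2.85 and 4.07 under Ad-GFP and of 6.79, 7.29 and 7.31 under Ad-nuclear CREBH. All Ad-nuclear CREBH dishes lay well above all Ad-GFP dishes, and the rise was 11.8-fold (log2 fold change 3.56, SE 0.32, adjusted p = 8.4e-05). Its linear mean of 140.2 in the Ad-nuclear CREBH dishes was under the minimum of 300 in the study's criteria. Sult2a8, a bile acid sulfotransferase of mouse liver, did not pass (0.44 on the log2 scale, SE 0.41, adjusted p = 0.45), with Ad-nuclear CREBH values from 4.71 to 6.47, and Sult2a6 differed by 0.06. The value of Sult2a8 rested on Ad-nuclear CREBH replicate 1, without which it was -0.06. The change of Sult2b1 exceeded that of Sult2a8 by 3.12 (95% interval 0.99 to 5.24), with an exact permutation p of 0.1.

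Sult3a1 and Sult6b1 rose by small amounts among the dimmest features of the array. Sult3a1 had group means of 1.80 and 2.22 (log2 fold change 0.42, SE 0.08, adjusted p = 0.0040), and its mean level stood at the percentile 0.28 of all genes. Sult6b1 had means of 2.23 and 2.53 (0.30, SE 0.07, adjusted p = 0.011, and 0.056 after cyclic loess). The values of Sult4a1, Sult5a1, Sult6b2 and Sult3a2 did not pass, with log2 fold changes from -0.18 to 0.42. Without Ad-nuclear CREBH replicate 1 the log2 fold change of Sult4a1 was 0.64, with an adjusted p of 0.043.

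**Figure D2:**
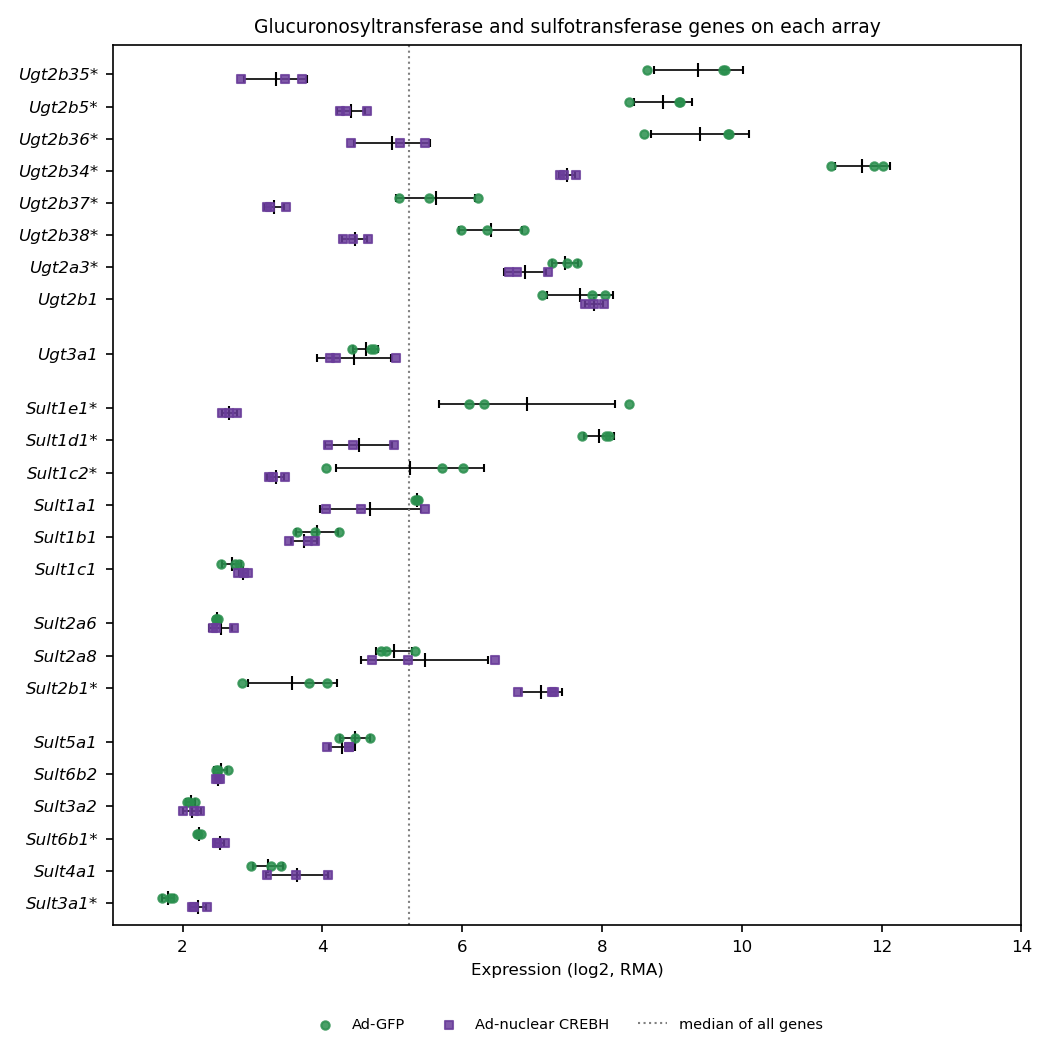
Log2 expression of the 9 Ugt and 15 Sult genes on each of the 3 Ad-GFP arrays (circles) and 3 Ad-nuclear CREBH arrays (squares), drawn with the group mean (tick) and SD (bar); an asterisk marks an adjusted p under 0.05 and the dotted line the median of all genes. Ugt2b35 spans the widest gap, and Sult2b1 is the only gene with a wide gap in the opposite direction. Taken over the arrays of both groups together, the mean of 12 Sult genes is at or under the dotted line.

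The stretch before the inner of the 2 listed starts of Sult2b1 is shown because that gene had the only rise above 4-fold and because CREBH is a relative of the factors that bind cyclic AMP response elements. Capitals mark TGACG, which is one arm of that palindromic element and reads on the opposite strand as CGTCA, and GCGTG.
Sult2b1, chr7:45742479-45742728, minus strand: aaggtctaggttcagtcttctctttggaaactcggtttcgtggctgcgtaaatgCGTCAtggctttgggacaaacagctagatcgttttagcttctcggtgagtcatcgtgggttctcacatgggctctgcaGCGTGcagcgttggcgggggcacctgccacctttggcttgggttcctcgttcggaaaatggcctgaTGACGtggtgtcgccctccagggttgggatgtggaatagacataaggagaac
TGACG was found in 3 of the 52 windows, those of Sult2b1, Gsto1 and Gstk1, against 20.8% of all windows. In the Sult2b1 stretch shown it occurred at 196 bases (opposite strand) and at 52 bases before the start. The window of the outer start, whose upstream part is chr7:45759613-45759862, held no TGACG. The full element TGACGTCA, which contains TGACG, was found in 0 of the 52 windows, against 1.79% of all windows.

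Several of the measured genes lie near each other in the genome, in the order given by RefSeq on GRCm38.p6. Along chromosome 3 the mu class follows as Gstm7, Gstm6, Gstm3, Gstm2, Gstm1 and Gstm4, so that Gstm2, which rose, lay between Gstm3 and Gstm1, which fell. Along chromosome 5 the order was Ugt2b34, Ugt2b1, Ugt2b35, Ugt2b36, Ugt2b5, Ugt2b37, Ugt2a3, Ugt2b38, Sult1b1, Sult1d1 and Sult1e1. Of these 11 genes 9 fell, and the exceptions, Ugt2b1 and Sult1b1, each lay between genes that fell. Sult1b1 was dim in both groups, with means of 3.93 and 3.74 against 7.68 and 7.89 for Ugt2b1, and so had little room to fall. On chromosome 10 Gstt1 fell between Gstt3 and Gstt4, neither of which passed. Gstt4 was also dim in both groups, with means of 4.09 and 4.08.

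**Figure D3:**
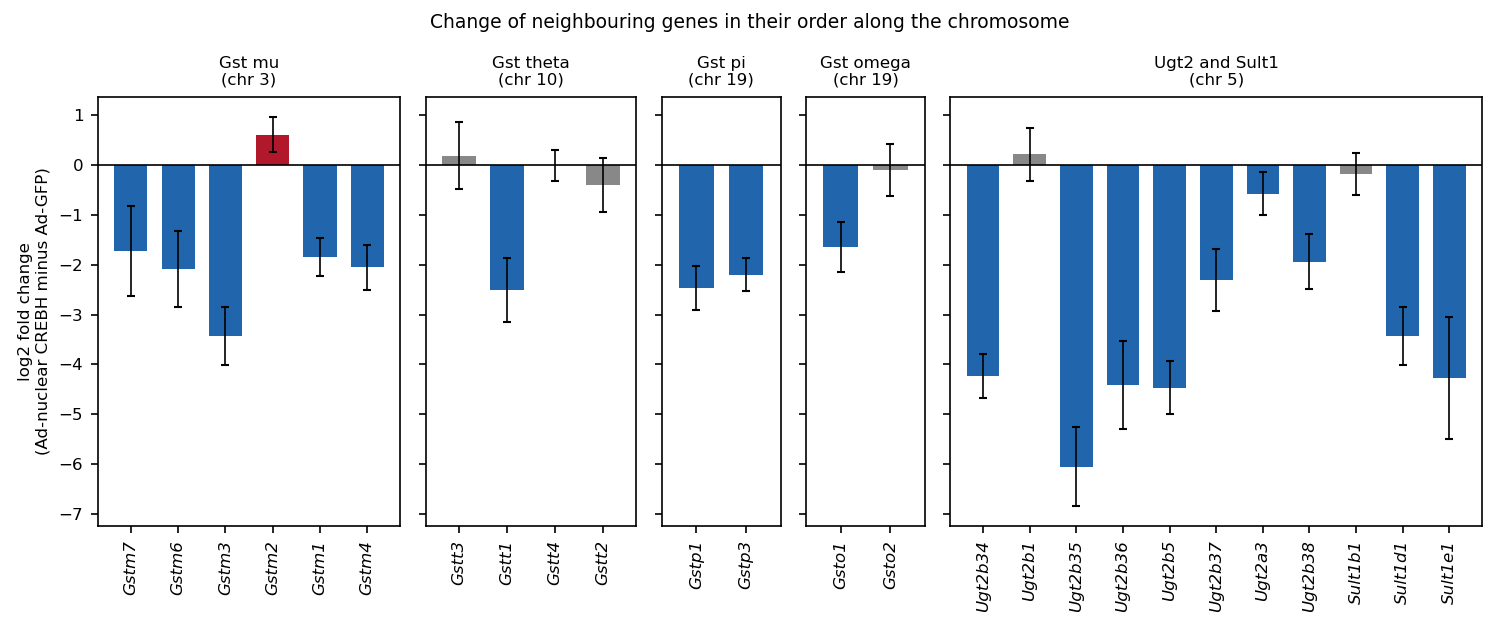
Log2 fold change (Ad-nuclear CREBH minus Ad-GFP, 3 arrays each) of neighbouring genes in their order along the chromosome, with 95% confidence intervals; blue bars fell, red rose, and grey did not pass an adjusted p of 0.05. Gstm2, Ugt2b1 and Sult1b1 stand out from the falling genes on both sides of them, but Sult1b1 was dim in both groups (means of 3.93 and 3.74).

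Genes linked to conjugation were read from lists of pathway genes, most of which lay above the median level of all genes. Of all genes above that level 29.2% fell and 29.3% rose, 58.5% in either direction. On the list for the supply and breakdown of glutathione 10 of 17 genes fell and 4 rose, with a median log2 fold change of -0.61. Split by role after the values were seen, 8 of the 10 genes for its supply and reduction fell and 2 rose, whereas of the 7 for its breakdown 2 fell and 2 rose. Slc7a11, the cystine importer, had values of 10.93, 10.79 and 10.61 under Ad-GFP and of 5.54, 5.39 and 5.13 under Ad-nuclear CREBH, a 43.0-fold fall. Gclm and Gclc, the subunits of the enzyme for the rate-limiting step of glutathione synthesis, fell 5.76-fold and 4.75-fold, and Gss, which completes the tripeptide, fell 3.89-fold. The genes that make cysteine from methionine went the other way: Cbs rose 4.14-fold and Cth 1.73-fold. Of the enzymes that degrade glutathione Chac1 rose 2.53-fold, while its relative Chac2 fell 2.42-fold (log2 fold change -1.27, adjusted p = 0.0013) and Ggt6, of the gamma-glutamyltransferase family, fell by 0.50 on the log2 scale (adjusted p = 0.039). Oplah, which returns oxoproline to glutamate, rose 2.69-fold by its brightest feature, but its dimmest feature gave a log2 fold change of -0.76. Ggct did not pass (log2 fold change 1.87, adjusted p = 0.062), and without Ad-GFP replicate 1, at 8.55 against 5.48 and 6.07 in the other Ad-GFP dishes, it was 2.80 (adjusted p = 3.5e-05).

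For UDP-glucuronate 2 of 8 genes fell and 2 rose, with a median log2 fold change of 0.08. All 8 lay above the median level, where 58.5% of all genes passed. Ugdh, the enzyme that makes UDP-glucuronate, had values of 11.31, 11.51 and 11.36 under Ad-GFP and of 7.53, 7.69 and 7.69 under Ad-nuclear CREBH, a 13.5-fold fall (log2 fold change -3.76, SE 0.11). Slc35d2, a carrier of nucleotide sugars, fell by 1.75 on the log2 scale. Uxs1, which turns UDP-glucuronate into UDP-xylose, rose 3.21-fold and Pgm2 3.49-fold, while Ugp2, which makes UDP-glucose, was at 10.67 in the Ad-GFP and 10.65 in the Ad-nuclear CREBH group mean.

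For PAPS 5 of 7 genes rose and 2 fell, with a median log2 fold change of 1.12. The sulfate carrier Slc26a2 rose 3.71-fold, the Golgi PAPS carrier Slc35b2 2.89-fold and the PAPS synthase Papss2 2.44-fold. The other synthase, Papss1, fell 2.65-fold, and Bpnt1, which clears the spent donor, fell by 0.40 on the log2 scale (adjusted p = 0.036). That call was lost when any array but Ad-GFP replicate 3 was left out, with adjusted p values up to 0.11, and after median centring, with 0.18.

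The 7 export pumps on the list all passed, 6 of them lower. Abcc4 had values of 9.08, 9.43 and 9.43 under Ad-GFP and of 4.74, 4.72 and 4.88 under Ad-nuclear CREBH, a 23.1-fold fall. Abcc2, the canalicular pump for glutathione and glucuronide conjugates, fell 9.31-fold, and Abcc1 8.53-fold. Abcg2, which exports sulfate conjugates, rose 1.73-fold (adjusted p = 0.023), but its adjusted p was 0.079 without Ad-nuclear CREBH replicate 2 and 0.082 without Ad-nuclear CREBH replicate 3. Of 5 hydrolases 4 fell, with a median log2 fold change of -1.22, led by the epoxide hydrolase Ephx1 at 5.74-fold and the sulfatase Arsa at 3.57-fold, while the β-glucuronidase Gusb did not pass (log2 fold change 0.31). Hgsnat, a lysosomal acetyltransferase needed to break down heparan sulfate, stood on the same list and fell 2.84-fold, which brings the list to 5 of 6 and its median to -1.37.

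Other conjugating enzymes changed in both directions, with 5 of 16 lower, 4 higher and a median log2 fold change of 0.13. Their shares of 31.2% lower and 25.0% higher were near those of all genes above the median level, where 11 of the 16 lay. Hnmt, the histamine methyltransferase, fell 4.66-fold, Baat, which joins bile acids to amino acids, fell 4.37-fold, and Acsm5, a ligase that activates medium-chain acids, fell 2.82-fold. Gnmt, the glycine methyltransferase, rose 4.54-fold, the ligase Acsm1 2.80-fold and Mettl7b, a thiol methyltransferase, 2.60-fold. Tpmt and As3mt did not pass.

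Of 24 regulators of these genes 7 fell and 7 rose, with a median log2 fold change of 0.07. Of the 22 above the median level 13 passed, a share close to the 58.5% of all genes there. Ahr, the aryl hydrocarbon receptor, had values of 9.37, 9.87 and 9.76 under Ad-GFP and of 6.87, 6.79 and 6.75 under Ad-nuclear CREBH, a 7.27-fold fall. The bile acid receptor Nr1h4 fell 6.03-fold, the xenobiotic receptor Nr1i2 3.66-fold and Nfe2l2, which encodes Nrf2, 2.85-fold. Ppara, the fatty acid receptor, rose 8.65-fold, Foxa1 3.13-fold and the small Maf gene Mafk 2.77-fold. Arnt and Hnf4a did not pass (log2 fold changes of -0.26 and -0.37). Without Ad-GFP replicate 1 they were -0.56 and -0.53, with adjusted p values of 0.0039 and 0.011.

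**Figure D4:**
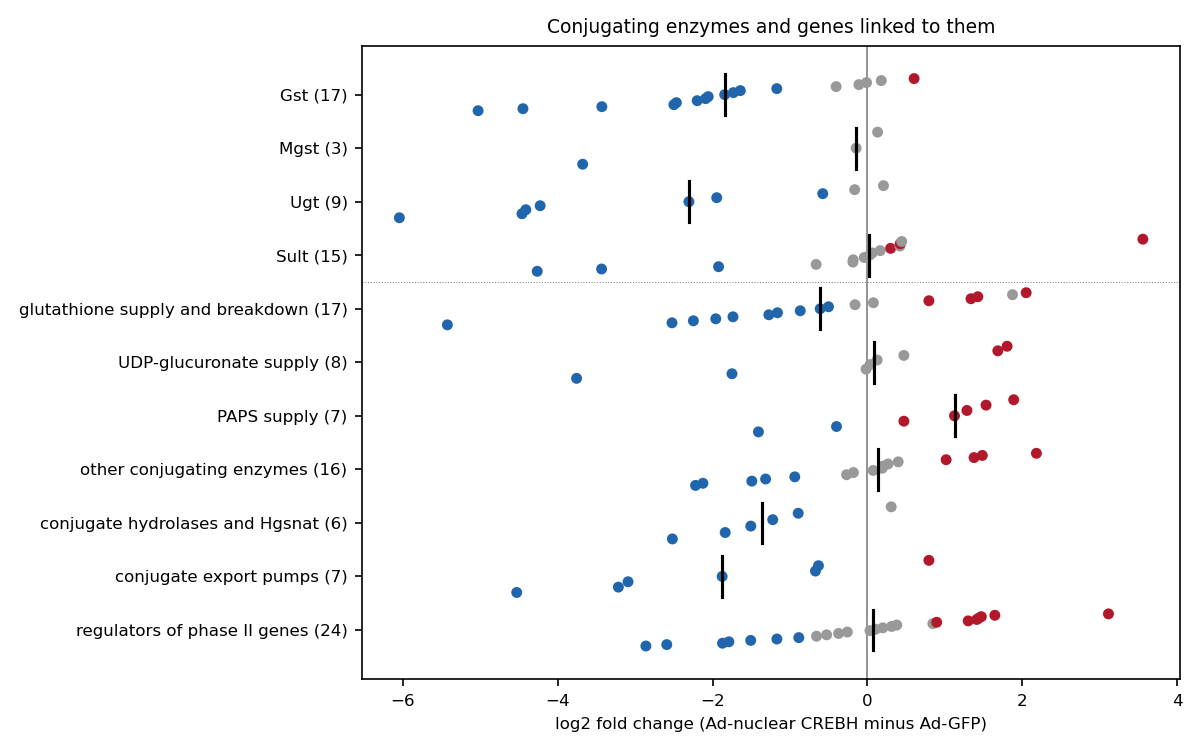
Log2 fold change (Ad-nuclear CREBH minus Ad-GFP) of each gene in the 4 enzyme families and in 7 lists of linked genes, with the number of genes in brackets; blue points fell, red rose and grey did not pass an adjusted p of 0.05, and the black line is the median. The medians of the Gst, Ugt and export pump genes and of the hydrolases taken with Hgsnat lie between -1.37 and -2.31, while that of the PAPS genes lies at 1.12.

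In a bulk sample fewer cells of a type and less RNA per cell cannot be told apart, so markers of liver cell types were read beside these results. Among the 10 hepatocyte markers Ttr and Apob, like Alb, did not pass, with log2 fold changes of 0.02 and 0.03. Apoa1 rose by 0.74, and Fgb and Tat fell by 2.29 and 2.17. Cps1 and Ahsg also fell, with log2 fold changes of -1.21 and -0.75, and Hnf4a did not pass (-0.37). The summed linear level of that list was 33132 to 37147 in the Ad-GFP dishes and 29117 to 32070 in the Ad-nuclear CREBH dishes. Gsta3, itself a conjugating gene, is on that list, so its own fall is part of the change in this sum. Its linear group means were 2434 under Ad-GFP and 111 under Ad-nuclear CREBH. Of 10 macrophage markers Cd68, Cd5l and Lyz2 fell and Csf1r rose (sums of 2707 to 3691 and 1230 to 2635). Each of these 4 calls was lost in 4 or 5 of the 6 fits that left out 1 array, with adjusted p values from 0.055 to 0.13. The call of Lyz2 was also lost after median centring, quantile normalization or cyclic loess, and that of Cd5l after median centring (adjusted p = 0.11). Of 10 endothelial markers Oit3 and Dnase1l3 rose (375 to 468 and 400.02 to 497), calls lost likewise in 5 and 4 of the fits that left out 1 array. The call of Oit3 was also lost with an intensity-based moderated statistic by local regression (adjusted p = 0.053). Of 10 stellate cell markers Reln fell (221 to 246 and 171 to 391). Col1a1 and Col1a2, the chains of type I collagen, had log2 fold changes of 1.63 and 1.02 with adjusted p values of 0.062 and 0.064. Without Ad-nuclear CREBH replicate 1 both passed as higher, by 2.43 and 1.51 with adjusted p values of 0.00022 and 0.00050, and they also passed with array weights, median centring or cyclic loess. Of 5 bile duct markers Epcam rose and Krt19 fell (243 to 574 and 409 to 612), and Sox9 passed as higher without Ad-GFP replicate 1 (1.02, adjusted p = 0.011). Of 9 leukocyte markers 0 passed by limma, 1 of them having an unadjusted p under 0.05 (74.2 to 81.7 and 79.4 to 90.1). Shares passing were 40% for macrophage and bile duct markers, 20% for endothelial and 10% for stellate cell markers, against 37.4% of all genes. The Kupffer cell markers Clec4f and Timd4 were dim in both groups, with means from 3.08 to 3.94. The part of other cells in the changes of the conjugating genes was not tested.

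Among the 23 conjugating genes that fell, Ad-GFP replicate 1 was the lowest of its group for 19 (82.6%), against 68.6% of all genes that fell. With both arrays numbered 1 left out, 31 conjugating genes passed, 26 lower and 5 higher, and these included all 27 that passed with every array. In that fit 48.6% of all genes passed, 25.3% lower and 23.3% higher, against 37.4% with every array. The log2 fold change of Ugt2b36 was then -5.05.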

How the data were processed

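Transcript levels of primary mouse hepatocytes were read on Affymetrix Mouse Gene 1.1 ST arrays, 3 per group, each from 1 dish and 100 ng of RNA. The authors deposited log2 values from RMA, a method that subtracts background, scales the arrays to each other and combines the probes of a transcript. The submitters' processing notes give no version, and the array definition and build are not given in the sources used here. RMA values carry no flag for background. The number of arrays limits the precision.

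Symbols came from the platform's annotation, which gave 1 symbol to 21218 features, several to 1881 and none to 12457. Features with 1 symbol were used, and 1386 genes that had several such features are given by their brightest. A further 19 genes of these families, among them Gstz1 and all Ugt1a genes found, share a feature with another symbol and were not analysed here.

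Linear models (Ad-nuclear CREBH minus Ad-GFP) came from limma 3.58.1 under R 4.3.3 (lmFit, eBayes with intensity trend), with 4 residual and 3.97 prior degrees of freedom, and p-values were adjusted by Benjamini-Hochberg over 18820 genes. Pairs of genes were compared by exact permutation of the arrays. The models were tested on simulated data. Promoter sequences are those of RefSeq (GRCm38.p6), aligned with Biopython 1.88. Figures were drawn with matplotlib 3.10.9.

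The genes, lists, motifs and tests were chosen with earlier results of these data known. The genes named were Creb3l3, Gsta3, in each class up to 5 largest rises, 5 largest falls and 3 others of highest mean, and in each linked list up to 3 rises, 3 falls and 2 others. Further names (Ugt2a3, Ugt2b38, Sult3a2, Cth, Gss, Chac2, Ggt6, Bpnt1, Nfe2l2 and markers among them) were added to complete an account. Alternatives covered the variance prior, array weights, normalization, the feature per gene, a filter on low values, the expression minimum, the replicate block and leaving out arrays; the fit without both arrays numbered 1 was chosen after seeing the data.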

Additional observations from a re-analysis of the deposited data

How the results depend on the processing

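The phase II count of 27, beside 37.4% of all genes, was 24 with cyclic loess (37.6% of all genes), 30 with array weights (49.0%), 22 of 27 tested with genes at or under the median level left out (62.3%), and 25 to 29 when arrays were left out in turn (29.5% to 41.5%). The calls of 36 of the 44 genes were the same under every alternative, and 0 reversed: those of Gstm2, Ugt2a3 and Sult6b1 were lost at least once, and Gstt2, Ugt3a1, Sult1a1, Sult1c1 and Sult4a1 passed at least once. Without genes at or under the median level 2 of 3 tested sulfotransferases passed, since fewer were tested. Where both group means had to exceed 300, 4 genes met the study's criteria instead of 15, by construction of that minimum, and without a minimum 21 did, Sult2b1 being the 1 that rose. With its dimmest feature Oplah had a log2 fold change of -0.76. With both arrays numbered 1 left out, Tpmt and Ttr had log2 fold changes of -0.19 and -0.17, opposite in sign to values that had not passed; the cause was not tested. Centring each array on its median shifted all genes, whose median log2 change went from 0.04 to 0.18, with 4814 higher and 2852 lower, while 5 conjugating genes rose and 22 fell.

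With arrays left out in turn, counts ranged from 12 to 14 for Gst, 1 to 1 for Mgst, 6 to 7 for Ugt, 6 to 8 for Sult and 14 to 15 by the study's criteria. Same-numbered arrays deviated together with correlations of 0.18, 0.07 and 0.14, so the numbers were not taken to pair the dishes, nor did every array correlate best with its own number. With the replicate block 27 conjugating genes passed, and 7420 of all genes against 7042.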
